A study of Mus musculus with 24 samples.

Results

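The 88 probes described here detect mouse miRNAs registered under the names miR-1186 to miR-1999. They were chosen by that number alone from the 566 mouse miRNA probes of an nCounter panel, an assay that counts fluorescent barcodes of probe pairs bound directly to RNA. The panel was read in 24 samples of a mouse model of metastatic breast cancer. JygMC(A)-GFP/Luc cells, a luciferase- and GFP-labelled line from a spontaneous mammary carcinoma of a Chinese wild mouse, were grown in the fourth mammary fat pad of BalbC nude mice, which lack T cells. Areas of 3 kinds were laser captured from the resulting lesions: carcinoma areas of the primary tumor (n = 5), areas of the primary tumor with the spindle shape of epithelial-mesenchymal transition (EMT-like, n = 7) and lung metastases (n = 4). Normal mammary gland (NMG, n = 2) and normal lung parenchyma (n = 2) of BalbC nude mice and the same cells in culture, as a monolayer (n = 2) or as third-generation 3D spheres on ultra-low adherent plates (n = 2), completed the series.

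The model is a single cell line in an immunodeficient host, young adult female mice by the study's methods. Carcinoma, EMT-like and metastasis samples came in part from the same animals, both normal tissues from the same 2 mice, and replicate 1 of each of the 3 tumor kinds carries a label that names 3 animals. Adjusted p-values below rest on a spread pooled over all 7 groups, cultures included, and take the samples as independent. For the groups of 2 that spread comes largely from the other groups.

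miRNAs are short RNAs that guide silencing complexes to mRNAs, mostly by pairing of their seed (bases 2 to 8). Registry numbers were assigned in the order of submission, so the high numbers mark entries found late, largely by deep sequencing of rodent tissues, and many have no known ortholog outside rodents. Several entries of this age were later withdrawn because their sequences came from other kinds of RNA, while others are undisputed, among them miR-1224, a mirtron that is spliced out as a short intron of Vwa5b2.

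Mature sequences were available from RefSeq (mouse build GRCm38.p6) for 63 of the 88 members. They were 17 to 26 nucleotides long, 16 probe names without an arm matched both arms of a hairpin, 50 members lay inside the span of a gene that is not itself a miRNA gene, and no seed was shared between members. The other 25 members were miR-1186, miR-1186b, miR-1191, miR-1194, miR-1196, miR-1274a, miR-1839-3p, miR-1893, miR-1901, miR-1907, miR-1927, miR-1935, miR-1937a/b, miR-1937c, miR-1939, miR-1940, miR-1942, miR-1944, miR-1946a, miR-1948, miR-1949, miR-1957, miR-1959, miR-1965 and miR-1971. The sequences of the members that carry the results with an entry are shown first, 5′ to 3′, with the seed in capitals.
miR-1224-5p: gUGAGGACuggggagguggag
miR-1224-3p: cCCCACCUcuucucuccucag
miR-1902: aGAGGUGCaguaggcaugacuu
miR-1839-5p: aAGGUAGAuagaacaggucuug
miR-1947-5p: aGGACGAGcuagcugagugcug
miR-1947-3p: gCACUGAGcuagcucucccucc
miR-1955-5p: aGUCCCAGgaugcacugcagcuuuu
miR-1951: gUAGUGGAgacugguguggcua
miR-1198-5p: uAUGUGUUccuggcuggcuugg

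The probe names miR-1224, miR-1947, miR-1955, miR-1198 and miR-1193 do not name an arm. Both arms are printed for miR-1224 and miR-1947, and the 5p arm for the others, without evidence for which arm the probe reads. miR-1224-5p lies at chr16:20604452-20604472 and miR-1224-3p at chr16:20604516-20604536, both within Vwa5b2. miR-1902 lies at chr2:104428871-104428892 on the minus strand within Hipk3, and miR-1839-5p at chr7:81529919-81529940 within 2900076A07Rik. The arms of miR-1947 lie at chr16:33105375-33105396 and chr16:33105411-33105432 within Lmln. miR-1955-5p lies at chr2:92191994-92192018 within Phf21a, miR-1951 at chr2:115638777-115638798 within BC052040 and miR-1198-5p at chrX:7807142-7807163 within Gripap1. Whether a position is exonic or intronic is not given by the gene table used.

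A second group of sequences is shown because a member has the seed of a well-known miRNA, with that miRNA printed below it.
miR-1961: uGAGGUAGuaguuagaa
let-7a-5p: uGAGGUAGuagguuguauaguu
miR-1928: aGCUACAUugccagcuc
miR-221-3p: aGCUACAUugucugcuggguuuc
miR-1193-5p: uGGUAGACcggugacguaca
miR-379-5p: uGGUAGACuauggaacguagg

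miR-1961 (chr5:92788465-92788481, minus strand, within Shroom3) and miR-1928 (chr1:74206562-74206578, minus strand) are 2 of the 3 members with a mature sequence of 17 nucleotides. The let-7a probe read 1059 to 60682 and was detected in all 24 lanes, whereas miR-1961 read -2 to 19 and was detected in 3. The miR-221 probe read 24 to 691 in all 24 lanes, and miR-1928 read 1 to 30 and was detected in 12. miR-1193-5p (chr12:109715716-109715735) and miR-379 both belong to the imprinted cluster of chromosome 12. Both were above the negative control limit in both NMG samples, at 27 and 28 for miR-1193 and 25 and 26 for miR-379. Neither exceeded the highest viral probe of these lanes (34 and 28), a second measure of background described below. In every tumor sample miR-379 was under the limit, and miR-1193 was above it in 2 of 16. Levels of different probes are not calibrated against each other, so these values are set side by side and their order is not read.

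Each deposited value is a barcode count less the average of the lane's 6 negative control probes, so background lies around 0. Detection in a lane meant a value that exceeded the negative controls' mean by more than 2 of their SDs, a limit of 4 to 21.4 that depended on the lane. Only 17 of the 88 members (19.3%) were detected in 12 or more lanes, against 37.4% of the other 478 mouse probes. Beside them, 12 of 12 conserved, widely expressed miRNAs (let-7 family, miR-16, miR-21, miR-24 and miR-26a), 10 of 13 probes for likely fragments of other RNAs (miR-720 and the probes from miR-2132 to miR-2146) and 0 of 33 viral probes reached 12 lanes.

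The 5 members detected in all 24 lanes were miR-1224, miR-1937a/b (a single probe), miR-1937c, miR-1944 and miR-1959. The other 12 of the 17 were miR-1955 (23 lanes), miR-1198 (22), miR-1935 (21), miR-1196, miR-1949 and miR-1951 (20 each), miR-1902 (18), miR-1839-5p (15), miR-1964 (14), miR-1981 (13), miR-1306 and miR-1928 (12 each). A further 29 members were detected in 3 to 11 lanes. In 10 lanes stood miR-1186b, miR-1929, miR-1940 and miR-1942, in 9 miR-1900 and miR-1963, in 7 miR-1197, miR-1895, miR-1946a and miR-1965, and in 6 miR-1193 and miR-1943. Fewer lanes held miR-1187, miR-1897-3p and miR-1941-5p (5 each), miR-1274a, miR-1903, miR-1945, miR-1947 and miR-1958 (4 each), and miR-1188, miR-1194, miR-1933-5p, miR-1939, miR-1941-3p, miR-1961, miR-1962, miR-1966 and miR-1967 (3 each).

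The remaining 42 members were detected in 2 lanes at most. Of these, 24 were detected in 1 or 2 lanes: miR-1186, miR-1190, miR-1191, miR-1192, miR-1195, miR-1839-3p, miR-1893, miR-1894-5p, miR-1896, miR-1898, miR-1904, miR-1905, miR-1906, miR-1931, miR-1936, miR-1938, miR-1948, miR-1952, miR-1953, miR-1956, miR-1957, miR-1960, miR-1982 and miR-1983. Normal lung replicate 2, the lane with the highest sum of mouse miRNA values, was the single lane above the limit for 7 of them (miR-1192, miR-1896, miR-1905, miR-1936, miR-1938, miR-1948 and miR-1952). No lane detected the other 18: miR-1199, miR-1892, miR-1894-3p, miR-1899, miR-1901, miR-1907, miR-1927, miR-1930, miR-1932, miR-1933-3p, miR-1934, miR-1946b, miR-1950, miR-1954, miR-1968, miR-1969, miR-1970 and miR-1971. Their highest value in any lane was 18. The paper lists miR-1892 among the miRNAs raised over NMG in both adenocarcinoma and EMT-like areas. Here miR-1892 read between -20 and 9, under the limit in every lane, and was not called against NMG in the test described below.

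The viral miRNA probes, whose targets were not introduced in this model, give a second measure of background in each lane. At least 13 of 33 viral probes passed the limit of the negative controls in 3 lanes, both NMG samples (13 and 15) and normal lung replicate 2 (15), against 0 to 7 in the tumor samples. The same 3 lanes had the most members above that limit, 43 to 48 of 88, whereas carcinoma samples had 11 to 24, EMT-like samples 18 to 37, metastases 12 to 26 and normal lung replicate 1 had 22. When a member had to be above both the limit and every viral probe of its lane, a rule chosen after these values were seen, NMG had 15 and 16, normal lung 17 and 18, carcinoma 11 to 14, EMT-like samples 12 to 19 and metastases 12 to 18. Against the viral probes NMG thus lay within the range of the EMT-like samples and the metastases and above that of carcinoma. Under this rule 13 members were detected in 12 or more lanes, with miR-1306, miR-1928, miR-1964 and miR-1981 no longer among them, and 53 in none. Normal lung replicate 1 had a higher sum of mouse miRNA values (590022) than either NMG sample, with 3 viral probes above the limit. What raises the viral probes in NMG and normal lung replicate 2 was not tested.

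**Figure D1:**
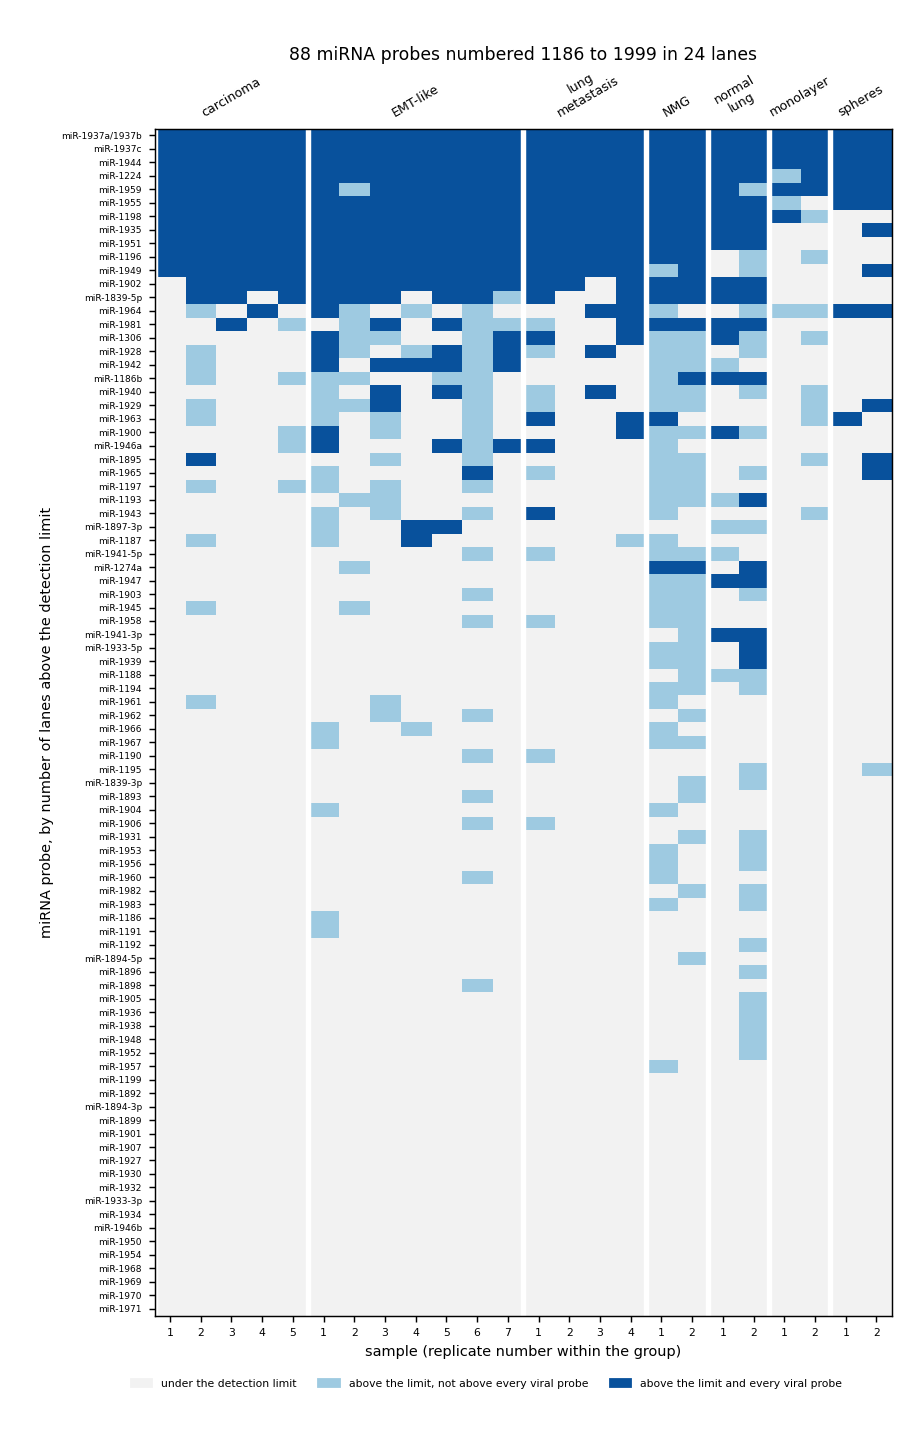
Detection of the 88 members (rows, ordered by number of lanes) in the 24 samples (columns, by group and replicate). Light blue marks a value above the lane's negative control limit and dark blue one also above every viral probe of the lane. The dark area at the top holds the 11 members from miR-1937a/b to miR-1949 that were above the viral probes in all 16 tumor samples, except miR-1959 in EMT-like replicate 2, and below it the light marks gather in EMT-like replicate 6, NMG and normal lung replicate 2.

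**Figure D2:**
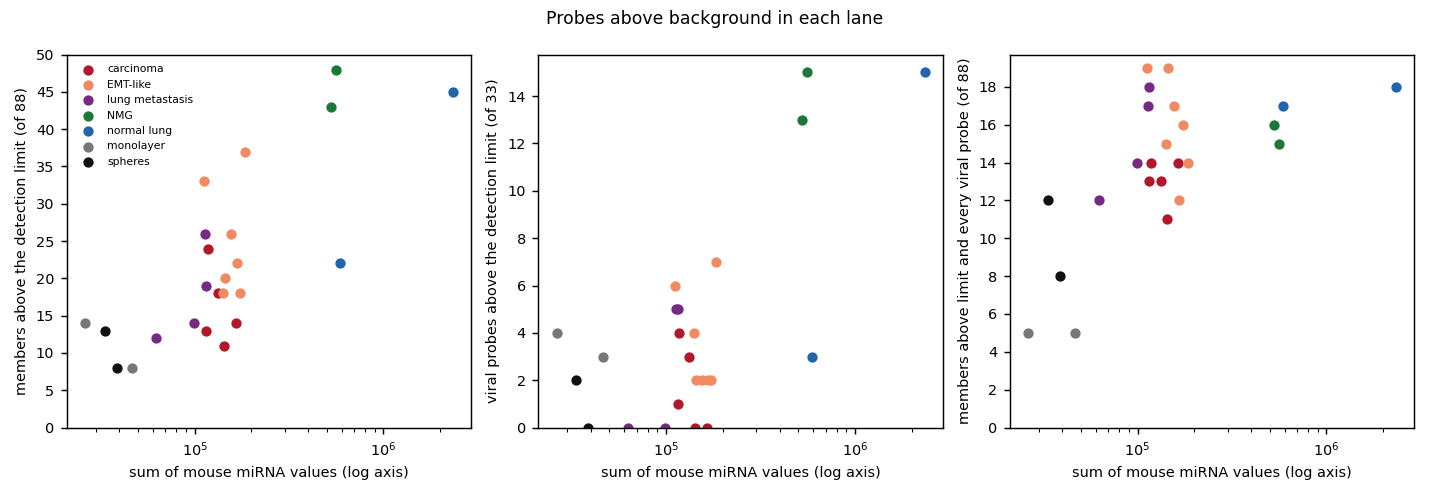
Members above the detection limit (left), viral probes above the same limit (middle) and members above the limit and every viral probe (right) in each lane, against the sum of mouse miRNA values of the lane on a log axis. Each point is 1 sample. NMG reaches 48 members on the left, and on the right its 15 and 16 members lie within the range of the EMT-like samples (12 to 19).

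Normalized values below were obtained by scaling the lanes with trimmed means of log ratios (TMM). The scaling matters because the mouse miRNA sums differed: tumor samples had 62583 to 184501, cultures 26420 to 46507, NMG 525697 and 560247, and normal lung 590022 and 2335745. Changes are log2 differences of normalized value + 1 with their SE, tested with limma over all 583 probes with any signal (87 members, since miR-1946b was never above 0) and called at a Benjamini-Hochberg adjusted p below 0.05. In dissected areas, fewer cells of a type and less RNA per cell cannot be told apart.

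The dissected areas differed in other cell types. The erythroid markers miR-144, miR-451 and miR-486 summed to 83.7 to 533 normalized units in the tumor samples (2 of 3 markers detected in most samples of each tumor kind), against 8118 and 8509 in NMG and 49121 and 55994 in normal lung (3 of 3). The endothelial markers miR-126-3p and miR-126-5p, both detected in most samples of every tissue group, summed to 819 to 3114 in the tumor samples, 10971 and 17649 in NMG and 67772 and 70141 in normal lung, and to 0 in all cultures. The sum of 7 epithelial markers of the miR-200 family, miR-203 and miR-205 was 930 to 5385 in carcinoma and 59.4 to 1758 in EMT-like samples. All 7 were detected in most samples of both.

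A small set of members dominated. miR-1944, the probes miR-1937a/b and miR-1937c, and miR-1224 held 70.7 to 96.1% of the members' summed values in a lane (median 92.1%). All 88 members together made up 7.47 to 11.7% of the mouse miRNA sum in tumor samples. NMG had 2.73 and 4.27%, normal lung 2.13 and 2.90%, the monolayer 3.55 and 15.0%, and each sphere sample 19.7%. The tumor and normal shares did not overlap. As deposited, the members' sums were not higher in tumors. They were 6721 to 16154 in tumor samples, 15271 and 22462 in NMG and 12562 and 67672 in normal lung, where the lanes' total sums were larger.

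Of 87 members tested, 4 rose in carcinoma against NMG (4.60%, where 5.49% of all probes rose) and 12 fell (13.8%, where 23.8% of all probes fell). In EMT-like areas against NMG, 3 rose (4.46% of all probes rose) and 8 fell (20.4% of all probes fell). The members' median change was -0.35 in carcinoma and 0 in EMT-like areas, beside -0.68 and -0.30 over all probes. In both comparisons 4 of the members that fell were under the limit in every sample of both groups, so those calls concern background values and carry no fold change (miR-1905, miR-1930, miR-1934 and miR-1952). miR-1931 and miR-1983 fell in both, and miR-1941-3p in carcinoma, with 1 of 2 NMG samples above the limit and no fold. Without NMG replicate 1 carcinoma had 8 calls and EMT-like areas 6, and without NMG replicate 2 carcinoma had 10. The risen members were all detected in every sample of the tumor group: miR-1196, miR-1944 and miR-1949 in both kinds of area, and miR-1224 in carcinoma. Of all 583 probes, 33 (5.66%) met the same rule of a call over NMG and detection in most samples of the raised group.

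miR-1196 read 289, 173, 178, 122 and 228 in the 5 carcinoma samples and 134 to 989 in the EMT-like samples (median 296). NMG read 55 in both samples, normal lung 11 and 32, the monolayer 13 and 17, and the spheres 19 and 9. Every primary tumor sample was above every normal and culture sample, in deposited as in normalized values. Normalized, carcinoma had 321, 204, 170, 152 and 311 and NMG 22.7 and 20.4, a log2 change of 3.30 ± 0.53 (SE; limma, adjusted p = 4.89e-05), and the change in EMT-like areas was 3.59 ± 0.50 (adjusted p = 1.32e-05). The paper picked this miRNA on the same samples, so these tests are not independent evidence of its rise.

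The metastases read 124, 61, 87 and 57 for miR-1196 and so were above NMG, with replicate 1 within the range of the primary tumors and the others below it, as deposited. Normalized, they were 163, 116, 112 and 83.01, of which the last alone was below every primary tumor sample. Their log2 change against normal lung was 4.01 ± 0.54 (limma, adjusted p = 3.23e-06), although normal lung was above the limit in 1 of 2 samples only. With the mRNA probes described below as the scale it was 1.66 and was not called (adjusted p = 0.0703). Against the 12 primary tumor samples the change was -1.08 ± 0.36 with an unadjusted p of 0.00738, which did not pass the adjustment (limma, adjusted p = 0.124). Without any scaling that difference was -1.61 and passed (adjusted p = 0.00998). Both cultures were at or near the limit, with 1 of 4 culture lanes above it.

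miR-1944 read 4176 to 6219 in carcinoma, 4109 to 6483 in EMT-like areas and 2019 to 3818 in metastases, and NMG gave 3617 and 3639. Deposited values of the primary tumors and NMG therefore lay within 2-fold of each other while the lanes' sums differed several-fold. As a share of the lane's mouse miRNA sum it was 3.14 to 4.68% in carcinoma, 2.91 to 4.61% in EMT-like areas and 0.646 and 0.692% in NMG. Normalized, it rose by 2.01 ± 0.26 in carcinoma (limma, adjusted p = 4.55e-06) and by 1.73 ± 0.25 in EMT-like areas (adjusted p = 2.03e-05), and in metastases it was 1.74 ± 0.27 above normal lung (adjusted p = 1.93e-05). With no scaling the first of these changes was 0.44 and was not called, and the third was -0.41.

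miR-1949 was a low signal in every group. It read 37, 63, 81, 22 and 63 in carcinoma, 39 to 94 in EMT-like areas (median 81) and 50, 31, 29 and 79 in metastases, and 14 and 46 in NMG. The deposited values of tumor and NMG overlapped, and the normalized ones did not (NMG had 5.77 and 17.1, carcinoma 27.5 to 85.9). The log2 change was 2.37 ± 0.60 in carcinoma (limma, adjusted p = 0.00480) and 2.45 ± 0.57 in EMT-like areas (adjusted p = 0.00273). Both calls were lost without NMG replicate 1 (log2 change 1.66 in carcinoma and 1.74 in EMT-like areas). The carcinoma call was also lost when all values were raised to a common floor at the highest scaled limit of the lanes compared.

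miR-1224 read 823, 369, 479, 168 and 241 in carcinoma, 230 to 352 in EMT-like areas (median 290), 859, 246, 334 and 242 in metastases and 164 and 234 in NMG. Carcinoma and EMT-like areas overlapped NMG in deposited values, and no tumor sample overlapped NMG (67.6 and 86.9) in normalized ones. Its change against NMG was 2.43 ± 0.83 in carcinoma (limma, adjusted p = 0.0317) and 1.74 ± 0.80 in EMT-like areas (adjusted p = 0.121). The carcinoma call was lost without carcinoma replicate 1 (adjusted p = 0.0710), carcinoma replicate 3 (0.0508), NMG replicate 1 or NMG replicate 2. With a sample left out the change in carcinoma was 2.15 to 2.68. The call was also lost with the common floor at the highest scaled limit.

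**Figure D3:**
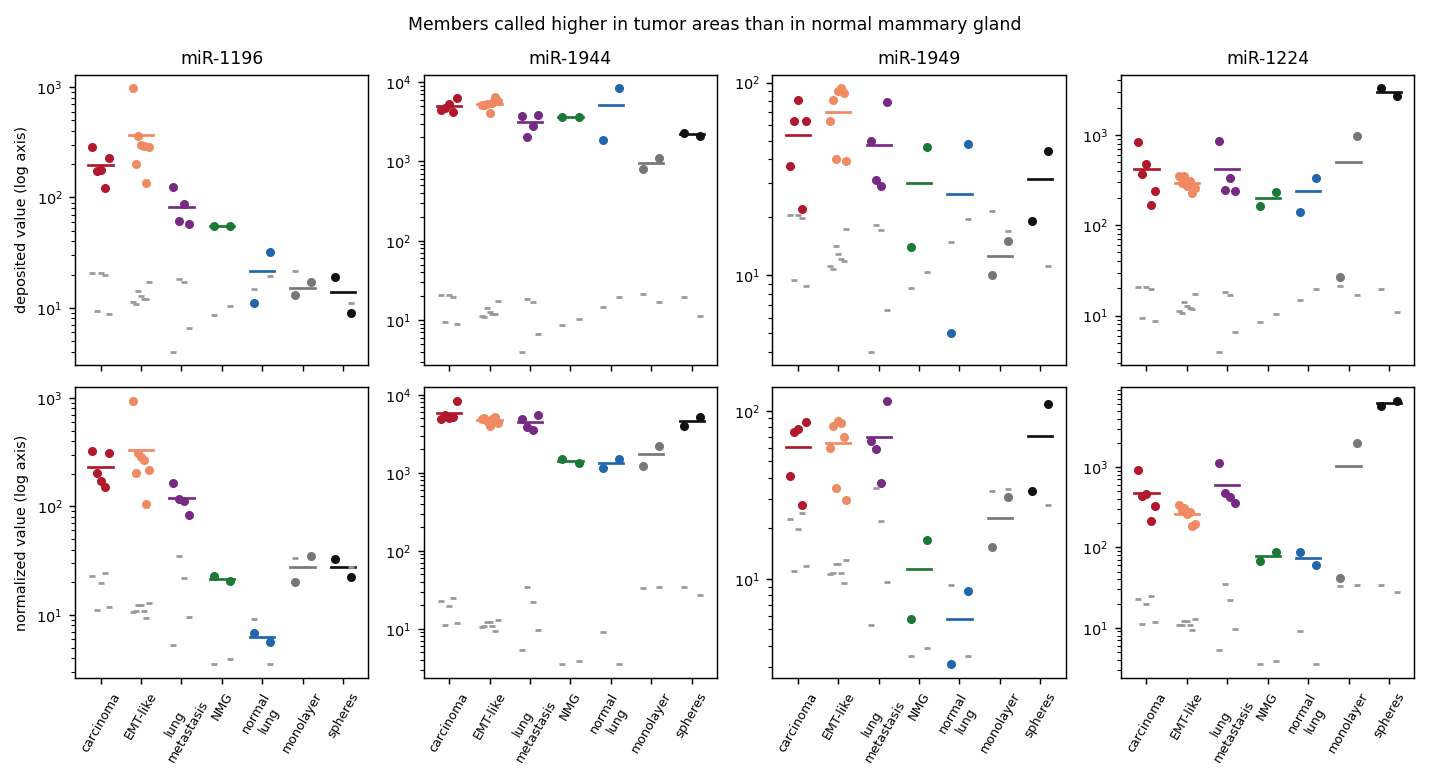
Values of the 4 members called higher in tumor areas than in NMG, as deposited (top) and after TMM scaling (bottom), on log axes. Points are samples, horizontal lines group means and grey dashes the detection limit of each lane. For miR-1196 the primary tumor points lie above NMG in both rows, and for miR-1944 the deposited values of the tumors (4109 to 6483) lie close to those of NMG (3617 and 3639).

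How the lanes were scaled decided 3 of these 4 results. The median change of the 196 probes detected in 12 or more lanes, carcinoma against NMG, was -0.17 with TMM, -1.68 without scaling, 0.68 when the 100 most abundant miRNAs set the scale and -1.0 when the 4 mRNA probes did (Actb, B2m, Gapdh and Rpl19). With no scaling or with the mRNA probes, miR-1196 alone was called higher and detected in the tumor areas. The 100 most abundant miRNAs as the scale gave 10 such members, adding miR-1198, miR-1306, miR-1935, miR-1937a/b, miR-1937c and miR-1959. miR-1196 met the rule under all settings and left-out samples that were run.

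**Figure D4:**
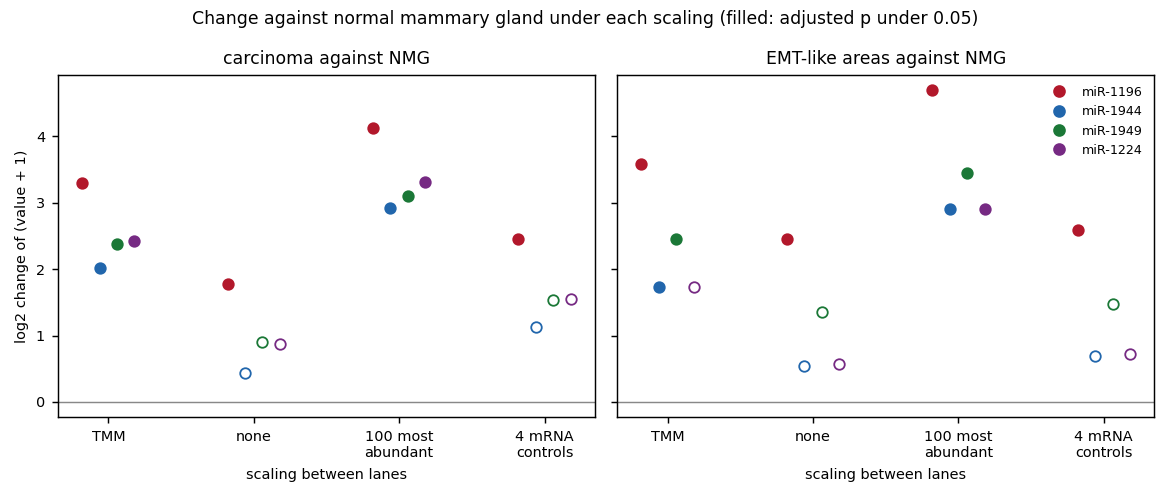
Log2 change of the 4 members against NMG in carcinoma (left) and EMT-like areas (right) under 4 ways of scaling the lanes. Filled points passed an adjusted p below 0.05. miR-1196 is filled throughout, at 1.77 to 4.13 in carcinoma, and the other members are open with no scaling and with the mRNA probes.

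Detection of a member in tumor areas was far more common than a rise. In all, 22 members were detected in most samples of at least 1 tumor kind, and 20 of these were also detected in both samples of a normal tissue. The exceptions were miR-1946a (6 of 16 tumor samples, highest value 30) and miR-1964 (8 of 16, highest value 24 in tumors and 28 in cultures), neither of which was called. Of the 22, 17 were called higher in no comparison. The same share among all probes detected in tumor areas is not given here, so this is not read as particular to the members. Probes miR-1937a/b and miR-1937c, for example, read 2659 to 5917 (miR-1937a/b) and 1301 to 2802 (miR-1937c) in tumor samples and 5698 and 10070, and 3254 and 5818, in NMG. The ratio within a lane, miR-1937c over miR-1937a/b, was 0.316 to 0.641 in all 24 lanes (median 0.486), with the lowest values in the spheres (0.316 and 0.334).

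In lung metastasis against normal lung, 6 members were higher (6.90%, beside 7.03% of all probes) and 32 lower (36.8%, beside 42.2% of all probes). The members' median change was -0.60 and that of all probes -0.90. Of the 38 called (49.2% of all probes were called in either direction), 12 were under the limit in every sample of both groups, and in 27 of the 32 lower ones every metastasis was under the limit. Without normal lung replicate 2 the calls numbered 16. The 12 were miR-1199, miR-1894-3p, miR-1894-5p, miR-1927, miR-1930, miR-1932, miR-1933-3p, miR-1950, miR-1954, miR-1969, miR-1970 and miR-1971. miR-1192, miR-1896, miR-1905, miR-1931, miR-1936, miR-1938, miR-1939, miR-1948, miR-1952 and miR-1983 were above the limit in 1 normal lung sample and have no fold. miR-1196, miR-1224, miR-1944 and miR-1949 were again higher. For miR-1949 the change was 3.38 ± 0.62 (limma, adjusted p = 0.000128) and for miR-1224 2.87 ± 0.86 (adjusted p = 0.00943). The latter was lost without normal lung replicate 2 (adjusted p = 0.141). Neither was called without scaling (1.38 and 0.73, adjusted p = 0.0895 and 0.453) or with the mRNA probes as the scale (1.07 and 0.37, adjusted p = 0.277 and 0.782), nor miR-1949 with a common floor at the highest scaled limit (0.86, adjusted p = 0.175).

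The other 2 higher members were near background. miR-1959, detected in all lanes at 14 to 59, was 1.56 ± 0.50 above normal lung after scaling (limma, adjusted p = 0.0131). As deposited it read 19 to 38 in metastases and 31 and 51 in normal lung, so the direction came with the scaling: with no scaling the change was -0.50, and without normal lung replicate 2 it was 1.06 (adjusted p = 0.243). miR-1963 was called higher against a normal lung group under the limit. The metastases read 15, 8, 7 and 13 with only 2 of the 4 above the limit, so it has no fold.

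Among the members that fell, miR-1902 had the widest range. It read 20, 17, 47, 39 and 87 in carcinoma, 37 to 123 in EMT-like areas and 18, 19, 6 and 32 in metastases. NMG read 294 and 580, normal lung 1203 and 4417, and the cultures -7 to 1. Normal lung was above NMG, NMG above every tumor sample, and the cultures at background, in deposited values as in normalized ones. The change was -4.94 ± 0.67 in metastases against normal lung (limma, adjusted p = 3.23e-06), -1.95 ± 0.65 in carcinoma against NMG (adjusted p = 0.0274) and -1.40 ± 0.62 in EMT-like areas against NMG (adjusted p = 0.106).

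The carcinoma call of miR-1902 was lost without carcinoma replicate 1 (adjusted p = 0.0600), carcinoma replicate 2 (0.0573), NMG replicate 1 (0.070) or NMG replicate 2 (0.257), with the 100 most abundant miRNAs as the scale (0.354) or with these groups alone in the fit (0.108). The effect of the tumor differed between the sites: the mean change of the 2 kinds of primary tumor area against NMG exceeded the change of metastases against normal lung by 3.27 ± 0.90 (limma, adjusted p = 0.0176). This difference passed in 6 members, all in that direction (6.90%), as in 10.6% of all probes, with 0.686% in the opposite one (11.3% in all). For miR-1902 it no longer passed without NMG replicate 1 (adjusted p = 0.139) or normal lung replicate 2 (0.0714) or with the 100 most abundant miRNAs as the scale (0.186), and without normal lung replicate 1 the count of members was 20. Erythroid and endothelial sums (given above) were likewise highest in normal lung, then NMG, then tumor samples. Among the tumor kinds the order differed. Metastases had the lowest mean of miR-1902, at 28.6 normalized units beside 50.9 (carcinoma) and 65.1 (EMT-like). Their erythroid sums were the highest, at 348 to 533 beside 83.7 to 225 (carcinoma) and 92.6 to 297 (EMT-like). Endothelial sums and miR-1902 values of the 3 kinds overlapped. The part of these markers in the site difference of miR-1902 was not tested.

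miR-1839-5p fell in all 3 comparisons. It read 15 to 28 in carcinoma, 10 to 33 in EMT-like areas and 11 to 23 in metastases, against 189 and 159 in NMG and 117 and 437 in normal lung, with every culture lane below 0. No tumor sample reached a normal one. The changes were -1.59 ± 0.42 (limma, adjusted p = 0.00744), -1.68 ± 0.41 (adjusted p = 0.00347) and -1.83 ± 0.44 (adjusted p = 0.00188). The other arm, miR-1839-3p, was above the limit in 2 lanes only, NMG replicate 2 (27) and normal lung replicate 2 (79). Without NMG replicate 1 the calls of miR-1839-5p against NMG were lost (adjusted p = 0.0784 in carcinoma and 0.0540 in EMT-like areas). With the 100 most abundant miRNAs as the scale all 3 calls were lost, at -0.70, -0.52 and -0.09 (adjusted p = 0.329, 0.447 and 0.908).

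miR-1947 was found in normal tissue alone. It was 10 and 19 in NMG and 57 and 308 in normal lung, and 2 or less in every tumor sample. Only the normal lung values were also above every viral probe of their lane. The bound against normal lung was at least 2.95-fold lower in metastases (limma, adjusted p = 9.23e-10). Both primary tumor comparisons were called as well (adjusted p = 4.33e-05 and 0.000202), without a fold because the scaled limits of the tumor lanes exceeded the NMG values. With a common floor at the highest scaled limit both of these changes were 0. miR-1274a read 68 and 86 in NMG and was at least 1.70-fold lower in carcinoma (adjusted p = 0.00828). This call was lost without NMG replicate 1 or NMG replicate 2, and with a common floor at the highest scaled limit.

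Smaller differences of the same direction were seen in lung. miR-1955 read 63 to 108 in metastases and 327 and 1633 in normal lung, a change of -0.98 ± 0.26 (limma, adjusted p = 0.00388). For miR-1935 it was -0.94 ± 0.29 (adjusted p = 0.00958) and for miR-1951 -1.32 ± 0.44 (adjusted p = 0.0153). The calls of miR-1935 and miR-1951 were lost without normal lung replicate 2 (adjusted p = 0.0556 and 0.176). When the 100 most abundant miRNAs set the scale, all 3 changed sign, to 0.80, 0.83 and 0.45. miR-1186b, miR-1941-3p and miR-1193 were lower by at least 1.86-, 1.10- and 1.01-fold, and miR-1897-3p (15 and 54 in normal lung) was called without a fold. For each of these members the change was 0 with a common floor at the highest scaled limit. None was called with the 100 most abundant miRNAs as the scale, nor miR-1193 with these groups alone in the fit. Without normal lung replicate 2 the calls of miR-1193 and miR-1897-3p were lost (adjusted p = 0.133 and 0.103), the latter also without normal lung replicate 1 (0.0660). miR-1903 (17 and 11 in NMG) was called in carcinoma against NMG, also without a fold. It was not called without carcinoma replicate 1 (adjusted p = 0.0513), NMG replicate 1 or NMG replicate 2. Nor was it called with the common floor, with 10 added to each value in place of 1, or with the 100 most abundant miRNAs as the scale.

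**Figure D5:**
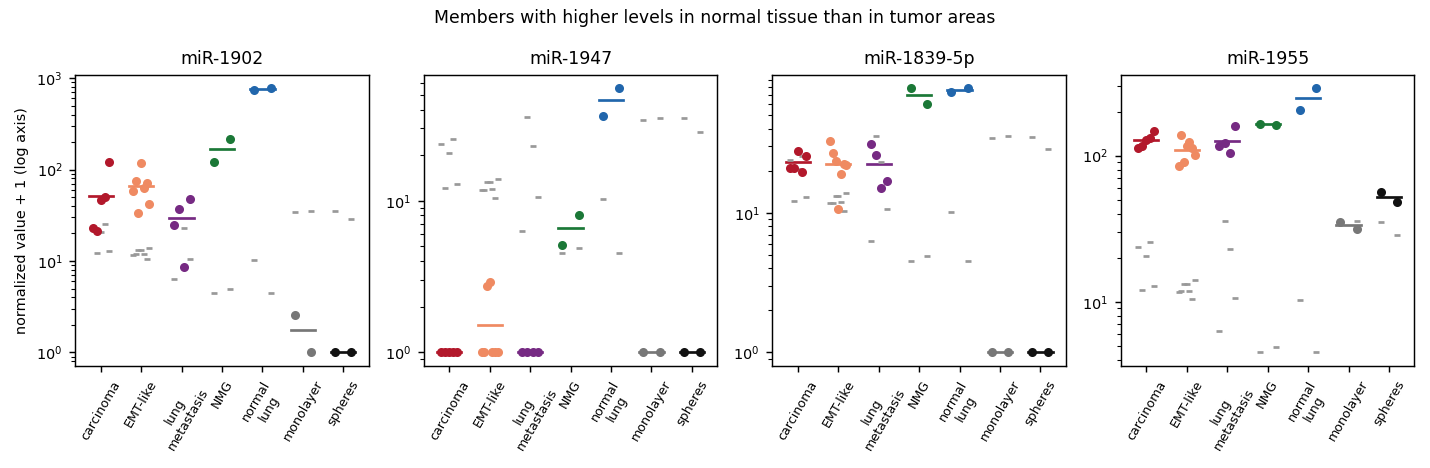
Normalized value + 1 on a log axis of 4 members with more signal in normal lung than in metastases. Points are samples, lines group means and grey dashes the detection limit of each lane after scaling. The normal tissue points of miR-1902 and miR-1839-5p stand above all tumor points, and tumor and culture points of miR-1947 lie under their limits.

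Carcinoma and EMT-like areas gave no member that passed the test (limma, 0.172% of all probes passed). Without EMT-like replicate 2 the count was 3, and without EMT-like replicate 3 or carcinoma replicate 4 it was 1. The lowest adjusted p-values were 0.0617 for miR-1953 and miR-1960, detected in 2 lanes each, and 0.0643 for miR-1928. miR-1928 read 3, 10, 1, 6 and 1 in carcinoma and 14 to 30 in EMT-like areas, and these groups did not overlap. It was above the negative control limit in 1 of 5 and 6 of 7 samples. Its log2 change was -2.01. The median of the viral probes was also lower in carcinoma (-7 to 1) than in EMT-like areas (1 to 5), and its part in this difference was not tested.

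Metastases and primary tumors also gave no call among the members (limma, 2.74% of all probes passed, 0.515% higher and 2.23% lower in metastases). The change of miR-1196 in this comparison is described above. Without lung metastasis replicate 3 or 4 there was 1 call.

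Spheres and monolayer differed in 3 members (3.45%, beside 4.63% of all probes). In spheres, 2 were higher (2.30%, beside 2.92% of all probes) and 1 lower (1.15%, beside 1.72%). The count was 6 without monolayer replicate 2 and 1 without any of the other 3 cultures. miR-1224 read 3317 and 2702 in spheres and 27 and 977 in the monolayer, a log2 change of 4.41 ± 1.0 (limma, adjusted p = 0.0108). It was 8.57 and 8.09% of the mouse miRNA sum in spheres, and 0.0581 and 3.70% in the 2 monolayer cultures. Without monolayer replicate 1 the change was 1.64 and was not called (adjusted p = 0.189), and the call was also lost without spheres replicate 1 (0.0613) or spheres replicate 2 (0.0882).

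miR-1944 read 2298 and 2099 in spheres and 797 and 1100 in the monolayer (log2 change 1.45 ± 0.31, limma, adjusted p = 0.00820). The call was lost with no scaling, with the mRNA probes as the scale or with these groups alone in the fit. It was also lost without monolayer replicate 1 (log2 change 1.02) or spheres replicate 2. miR-1198 was above the limit in both monolayer samples (39 and 22) and in neither sphere sample (2 and 8), at least 1.68-fold lower in spheres (limma, adjusted p = 0.00887). It was not called without spheres replicate 1 (log2 change -1.35) or with the mRNA probes as the scale. Nor was it called with a common floor at the highest scaled limit or with these groups alone in the fit. Probe miR-1937a/b read 1199 and 1141 in spheres and 227 and 985 in the monolayer, a change of 1.53 that was not called (adjusted p = 0.117), and was 2.78 without monolayer replicate 2 (adjusted p = 4.81e-05).

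Some members share a number as letters or arms. miR-1186b was detected in 10 lanes and miR-1186 in 1, miR-1946a in 7 and miR-1946b in 0, miR-1894-5p in 1 and miR-1894-3p in 0, miR-1933-5p in 3 and miR-1933-3p in 0, and miR-1941-5p in 5 and miR-1941-3p in 3. In the chromosome 12 imprinted cluster lie 4 members, miR-1188 (within Rian, 3 lanes), miR-1193 (6 lanes), miR-1197 (7 lanes) and miR-1906 (within Meg3, 2 lanes). miR-1188 was above the limit in normal tissue only, and in no lane above every viral probe.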

How the data were processed

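Laser captured tissue and cultured cells were read with the nCounter mouse miRNA assay. The deposited values, classed here as a score because the authors reduced each count by its lane's average over 6 negative controls, are whole numbers down to -20 and were not scaled between lanes. The submitters' processing notes name Partek without a version. The members and lists were chosen with earlier results of these data known. Values were floored at 0, scaled by TMM (trimming 30% by log ratio and 5% by level) over 599 miRNA probes, put on log2(value + 1) and fitted with limma 3.58.1 (eBayes with trend; R 4.3.3) in 7 groups and 24 samples, with adjustment over 583 probes. Tables and plots used Python 3.11.15, numpy 2.4.6, pandas 2.3.3 and matplotlib 3.10.9. Values are given for members raised over NMG, members called and detected in most samples of the higher group, the 10 with the highest median and those that the paper names. A fold against a group under the limit is a bound at that limit. Tested on simulated data, the fit recovered 26.5 to 49% of all changed probes over the 6 comparisons, and 86.4 to 100% of those whose mean reached 20. False calls made up 25% of calls for spheres against monolayer, 6.67% for metastases against primary tumors and at most 2.35% elsewhere. The simulation took the scale of each lane as known, with a single dispersion of 0.07 and background centred on 0 in every lane. These shares therefore cannot cover errors from the choice of scaling or from background raised in some lanes.

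The likeness of samples from 1 animal was checked by correlating their deviations from the group means. It was -0.301 to 0.391 over 10 pairs of the same animal (median 0.108), beside a median of 0.0818 between other animals of the same series. Because animals are shared according to the labels, a fit with the animal as a block is given as an alternative. At most 9.01% of values were identical between replicates of a group.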

Additional observations from a re-analysis of the deposited data

Results flagged for a closer look

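Among 39 sets of values screened for a sample far from the rest of its group, 5 stood out by Dixon's criterion, which chance alone meets in about 5% of sets. miR-1196 was 945 normalized units in EMT-like replicate 1, where the other 6 EMT-like samples lay between 106 and 313. In the same sample miR-1951 was lowest, at 44.9 beside 73.1 to 92.1. miR-1224 was 1131 in lung metastasis replicate 1, beside 352 to 469 in the other metastases. Both of these samples carry the label that names 3 animals. miR-1944 was 8476 in carcinoma replicate 5 (4965 to 5494 in the others), and miR-1937a/b was 8617 in lung metastasis replicate 4 (4915 to 5167 in the others).

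The tumor effect (tumor areas against the normal tissue of the site) differed between mammary gland and lung in 6 members (limma; 6.90% of members, beside 11.3% of all probes). The difference, mammary minus lung, was 2.14 for miR-1192, 5.32 for miR-1897-3p, 3.27 for miR-1902, 1.34 for miR-1930, 3.02 for miR-1947 and 1.48 for miR-1970 on the log2 scale. Of these, miR-1902 was detected in most tissue samples. miR-1947 was under the limit in every tumor sample, and its NMG values (10 and 19) were not above every viral probe. With a common floor at the highest scaled limit its difference was 0.33 and was not called (limma, adjusted p = 0.0984). miR-1930 and miR-1970 were under the limit in every lane and miR-1192 was above it in 1, so their differences are between background values. miR-1897-3p was 0 in both NMG samples and detected in 3 of 7 EMT-like samples, and no longer passed without NMG replicate 1 (adjusted p = 0.0763), NMG replicate 2 (0.0654) or normal lung replicate 2 (0.0654).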

How the results depend on the processing

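Counts of members called moved most with the scaling, the background and the normal samples. For carcinoma against NMG the 16 calls became 36 with no scaling (1 higher, 35 lower), 10 when only probes with 20 or more in 2 samples were kept (filter) and 5 with a common floor at the highest scaled limit, and 8 to 16 when a sample was left out (8 without NMG replicate 1, 10 without NMG replicate 2). For EMT-like areas against NMG the 11 became 18 (no scaling), 6 (filter) and 7 (floor), and 6 to 13 (6 without NMG replicate 1). For lung metastasis against normal lung the 38 became 17 (filter), 11 (floor) and 23 (only the groups compared), and 16 to 43 (16 without normal lung replicate 2). Scaling by the 100 most abundant miRNAs changed the split of higher to lower calls to 7 and 7 (carcinoma), 10 and 6 (EMT-like areas), and 16 and 17 (metastases). The median change of all tested probes moved too. With TMM, no scaling and the 100 most abundant it was -0.68, -1.83 and -0.11 (carcinoma), -0.30, -1.16 and 0.12 (EMT-like areas), and -0.90, -2.33 and -0.03 (metastases). Shares called over all probes under these settings are not given, so the counts are not read as particular to the members. The 0 calls between metastases and primary tumors became 2 with no scaling and 0 to 1 with a sample left out, and the 0 between carcinoma and EMT-like areas became 3 (no scaling), 1 (filter) and 0 to 3. The 3 of spheres against monolayer became 1 with the mRNA probes and 0 with only those groups, and 1 to 6. The 6 differences of tumor effects became 3 (100 most abundant), 3 (filter) and 2 (floor), and 4 to 20 (20 without normal lung replicate 1). The 4 members raised over NMG and above background became 1 with no scaling, 1 with the mRNA probes and 10 with the 100 most abundant miRNAs. They became 5 with the filter or with 10 added in place of 1, and 6 with only the groups compared. The common floor gave 4, but with miR-1198 in place of miR-1224. Without a carcinoma or EMT-like sample the count was 3 to 5. Without NMG replicate 1, miR-1224 and miR-1949 no longer met the rule, and without NMG replicate 2 miR-1224 did not. The same 4 members remained with stricter detection limits, the viral one included.

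Signs turned for miR-1944 in metastases against normal lung (-0.41 with no scaling, -0.77 with the mRNA probes), miR-1959 (-0.50 and -0.85), miR-1955 (0.80), miR-1951 (0.45) and miR-1935 (0.83, all 3 with the 100 most abundant miRNAs) and, in carcinoma against NMG, miR-1198 (-0.36 with no scaling, beside 1.17). With the animal or culture number as a replicate block, all counts were as without it (16, 11, 38, 0, 0, 3, 6 and 4), and no named member changed its call. Where 1 of 2 samples was left out, the lone sample was assumed to vary like the other groups. Except where another scaling or the samples compared show it by construction, the cause was not tested.

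Values near the limit carry little precision: scaled limits were 3.5 to 3.9 in NMG and 5.3 to 34.7 in tumor samples, so a member at 10 normalized units could be detected in NMG and not in most tumor lanes.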
